A study of Mus musculus with 22 samples.

Results

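Expression of 8 genes of the stress hormone systems was followed in the prefrontal cortex (PFC) of 11 mice, in all 22 libraries of the data set. They are the corticosteroid receptor genes Nr3c1 and Nr3c2, the steroid-activating enzyme gene Hsd11b1, the corticotropin-releasing hormone (CRH) genes Crh, Crhr1 and Crhbp, and the genes of PACAP and its receptor, Adcyap1 and Adcyap1r1. The members were chosen by name, with earlier results of these data known, and each of the 8 symbols matched 1 of the 39056 genes counted. Every mouse was a male transgenic animal of 8 to 12 weeks that carried the EGFP-tagged ribosomal protein Rpl10a under the CaMKIIα promoter, Control mice included. Each gave a TRAP library, made from RNA pulled down with the tagged ribosomes, and a total-RNA library from the same homogenate. Control mice (n = 3, mice 1, 4 and 7) had intraperitoneal normal saline, EtOH mice (n = 4, mice 2, 5, 8 and 9) had ethanol, and EtOH + ABT-888 mice (n = 4, mice 3, 6, 10 and 11) had ethanol and, on day 4 only, ABT-888, a PARP inhibitor, at 25 mg/kg. Ethanol was given to a daily dose of 2 g/kg in 2 injections that were 2 h apart, on 4 days, and tissue was taken 2 h after the last injection.

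Corticosterone reaches the cortex from the blood and acts on 2 nuclear receptors, the glucocorticoid receptor (GR, encoded by Nr3c1) and the mineralocorticoid receptor (MR, encoded by Nr3c2), which binds the hormone with higher affinity. The enzyme 11β-HSD1, encoded by Hsd11b1, regenerates the active steroid from its inactive 11-keto form inside cells. CRH is a peptide best known for starting the hypothalamic stress response, and in the cortex it is made mainly by interneurons. CRHR1 is its main brain receptor, and the secreted CRH-binding protein (Crhbp) holds the peptide away from receptors. PACAP (Adcyap1) is a stress peptide of the secretin and VIP family, and PAC1 (Adcyap1r1) is its selective receptor. CRHR1 and PAC1 both raise cyclic AMP through Gs and adenylyl cyclase, which acts on genes through CREB and the cyclic AMP response element (CRE).

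In mm10, Nr3c2 lies on chromosome 8 (76899442 to 77245012, plus strand) and Hsd11b1 on chromosome 1 (193221634 to 193264075, minus strand). Crh is on chromosome 3 (19693401 to 19695396, minus strand), Crhr1 on chromosome 11 (104132855 to 104175523, plus strand) and Crhbp on chromosome 13 (95431371 to 95444924, minus strand). Adcyap1 is on chromosome 17 (93199017 to 93206537, plus strand) and Adcyap1r1 on chromosome 6 (55451978 to 55501451, plus strand). All are protein-coding, and counts were taken over exons. Nr3c2 shares 247 of its 6474 exonic bases with Gm10649 on the opposite strand. The strand setting of the counting is not given in the sources used here, so reads from those bases cannot be told apart. The other genes share no exonic base with another gene.

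The promoters of the members that passed the test in a comparison with Control are shown with the CRE core in capitals where it occurs. Sequences are from RefSeq on GRCm38.p6, the patch release of the same assembly, and hold the 250 bases before the first listed start, read 5′ to 3′ on the strand of the gene. The motifs were also looked for in the 50 bases after the start.
Adcyap1, chr17:93198767-93199016 (+): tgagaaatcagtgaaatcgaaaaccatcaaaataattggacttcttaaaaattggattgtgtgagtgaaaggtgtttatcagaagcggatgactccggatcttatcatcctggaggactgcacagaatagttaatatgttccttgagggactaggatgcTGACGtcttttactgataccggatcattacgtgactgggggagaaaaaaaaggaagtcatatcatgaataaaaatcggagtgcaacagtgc
Adcyap1r1, chr6:55451728-55451977 (+): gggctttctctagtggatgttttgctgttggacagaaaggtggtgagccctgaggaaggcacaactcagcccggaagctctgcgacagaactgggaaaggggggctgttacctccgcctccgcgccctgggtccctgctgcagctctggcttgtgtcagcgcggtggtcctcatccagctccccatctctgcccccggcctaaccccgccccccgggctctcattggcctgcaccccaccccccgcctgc
Crhr1, chr11:104132531-104132780 (+): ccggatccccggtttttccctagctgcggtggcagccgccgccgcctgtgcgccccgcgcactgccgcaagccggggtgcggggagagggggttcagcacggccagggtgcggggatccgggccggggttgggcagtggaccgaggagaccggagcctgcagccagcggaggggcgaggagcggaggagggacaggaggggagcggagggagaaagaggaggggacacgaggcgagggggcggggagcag
The CRE core TGACG, searched on both strands, was found once in the Adcyap1 window, 91 bases before the start (offset -91), and not in those of Adcyap1r1 or Crhr1. It was also present once in the Crhbp window at offset -64, on the opposite strand. Windows of 6 of the 8 members were in the table, and those of Nr3c2 and Hsd11b1 held no match. Of the 32851 promoter windows of this length, 20.8% held TGACG. The full CRE TGACGTCA, which contains TGACG, the glucocorticoid response element (GRE) core AGAACA and the GRE palindrome, in which that core and its reverse complement stand 3 bases apart, were in no member's window, against 1.79%, 19% and 0.00913% of all windows. These letters describe the windows only, and no binding was measured.

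Counted reads ranged from 6570957 to 22002618 in TRAP and from 22132534 to 32421392 in total-RNA, and the shallowest library was the EtOH + ABT-888_TRAP library of mouse 6. Of the genes counted, 14072 passed the filter, all 8 members among them. Low members rested on few reads in TRAP: Hsd11b1 had 5 to 24 reads per library, Crh 6 to 125, Crhbp 6 to 71 and Adcyap1 0 to 65, whereas Nr3c1 had at least 883 and Nr3c2 at least 511. The neuronal markers in TRAP did not all follow the CaMKIIα label. In Control, 5 of 6 excitatory neuron markers were lower in TRAP than in total-RNA, among them the vesicular glutamate transporter Slc17a7 (log2 difference -1.13), and Camk2a itself differed by -0.17 (adjusted p = 0.203). The GABAergic markers Slc32a1 (2.52), Gad1 (1.24) and Gad2 (1.12) were higher in TRAP, while Pvalb, Npy and Lhx6 were lower. All 8 astrocyte, 8 oligodendrocyte, 8 microglia and 8 endothelial and pericyte markers were lower in Control_TRAP. Of all 14072 genes, 4280 were called lower and 4148 higher in that comparison. In total-RNA the summed level of the microglia markers was 363 to 372 CPM (counts scaled to the TMM-normalized library size) in Control, 149 to 232 in EtOH and 155 to 299 in EtOH + ABT-888. In TRAP the 6 excitatory markers had median log2 fold changes against Control of -0.94 for EtOH and -1.02 for EtOH + ABT-888. Camk2a stood at 0.47 and 0.30. Of the 6 markers, 1 passed for EtOH (5.24% of all genes did) and 2 for EtOH + ABT-888 (0.476%). Their summed level, by contrast, was 2379 to 2643 CPM in Control_TRAP, 2494 to 3269 in EtOH_TRAP and 2207 to 3212 in EtOH + ABT-888_TRAP. In EtOH + ABT-888_TRAP the oligodendrocyte and the endothelial and pericyte markers had median log2 fold changes of 0.89 and 0.82, with none passing, and the summed oligodendrocyte level was 1505 CPM in mouse 11 against 350 to 466 in Control. Whether these differences had a part in the values of the 8 genes was not tested, and in bulk RNA fewer cells of a type and less RNA per cell cannot be told apart.

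Per length of exon, Nr3c1 was the highest of the 8 transcripts in Control_total-RNA, at 24.2 ± 0.794 RPKM (CPM divided by exon length in kilobases, SD, n = 3 mice). Adcyap1r1 followed at 18.3 ± 0.956, Nr3c2 at 9.25 ± 0.498, Crhbp at 7.72 ± 0.326, Crhr1 at 5.05 ± 0.668, Crh at 4.33 ± 1.38, Adcyap1 at 3.54 ± 0.199 and Hsd11b1 at 2.36 ± 0.237. The mice did not overlap between neighbours in this order, except between Crhr1 and Crh and between Crh and Adcyap1. In Control_TRAP the order was Nr3c1 (18.3 ± 0.713 RPKM), Nr3c2 (11.7 ± 0.975), Crhr1 (10.3 ± 0.666), Adcyap1r1 (6.22 ± 1.16), Crh (2.83 ± 2.31), Crhbp (1.36 ± 0.768), Adcyap1 (0.768 ± 0.183) and Hsd11b1 (0.200 ± 0.0261). Crhr1 had rank 3 in TRAP and 5 in total-RNA, and Adcyap1r1 rank 4 and 2. In TRAP the ranges overlapped between Nr3c2 and Crhr1, between Adcyap1r1 and Crh, between Crh and Crhbp and between Crhbp and Adcyap1. In EtOH_TRAP the first place passed to Nr3c2, at 15.8 ± 1.30 RPKM against 13.2 ± 0.782 for Nr3c1 (n = 4), with no overlap between mice. In EtOH + ABT-888_TRAP the same 2 genes overlapped, at 15.5 ± 3.40 and 14.7 ± 2.21 RPKM. In both treated total-RNA groups Adcyap1r1 had the highest mean, 24.3 ± 3.53 RPKM in EtOH and 23.5 ± 0.649 in EtOH + ABT-888, with overlap with Nr3c1 in each.

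**Figure D1:**
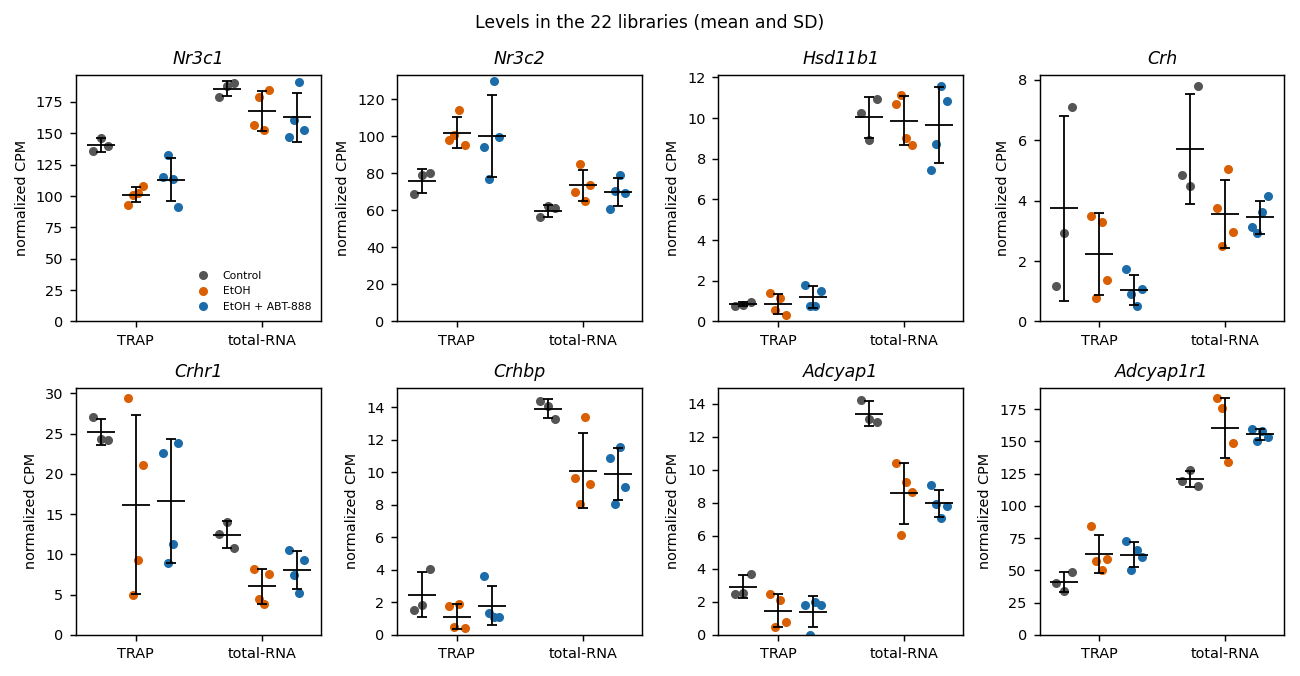
Normalized CPM (vertical axis, from 0, one scale per gene) of the 8 genes in the 22 libraries, by RNA pool and treatment. Points are mice, horizontal lines the mean and bars the SD. In TRAP, Nr3c1 of the EtOH mice (93.2 to 108) sits below that of Control mice (136 to 147), and in total-RNA Adcyap1 of the treated mice (6.02 to 10.4) sits below that of Control mice (12.9 to 14.3).

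The first question is which of these transcripts differed between TRAP and total-RNA. Total-RNA came from all cell types of the tissue. Cell type, ribosome binding and pull-down background can therefore not be told apart in such a difference. In Control, 7 of 8 genes differed between TRAP and total-RNA at an adjusted p under 0.05 (edgeR's quasi-likelihood test), where 59.9% of all 14072 genes did. In EtOH the count was 7 (50.7% of all genes) and in EtOH + ABT-888 it was 8 (41.0%). Nr3c2 and Crhr1 were higher in TRAP in each treatment, Nr3c1, Hsd11b1, Crhbp, Adcyap1 and Adcyap1r1 were lower in each, and Crh was lower with EtOH + ABT-888. Between the paired libraries of single mice, Nr3c2 and Crhr1 were higher in TRAP in 11 of 11 mice and the other 6 genes were lower in 11 of 11. The share of all genes that kept 1 direction in 11 of 11 mice was not counted, so this is not shown to be particular to these genes. The difference in log2 CPM ranged from 0.12 to 0.81 for Nr3c2 and from 0.14 to 1.84 for Crhr1. It ranged from -0.82 to -0.28 for Nr3c1, from -1.92 to -1.13 for Adcyap1r1 and from -2.65 to -0.09 for Crh. The lowest values were those of Hsd11b1 (-4.42 to -1.99), Crhbp (-4.29 to -1.56) and Adcyap1 (-3.57 to -1.78 in the 10 mice with reads in both libraries). Without the TRAP library of EtOH + ABT-888 mouse 11, 5 members and not 8 passed in that group.

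**Figure D2:**
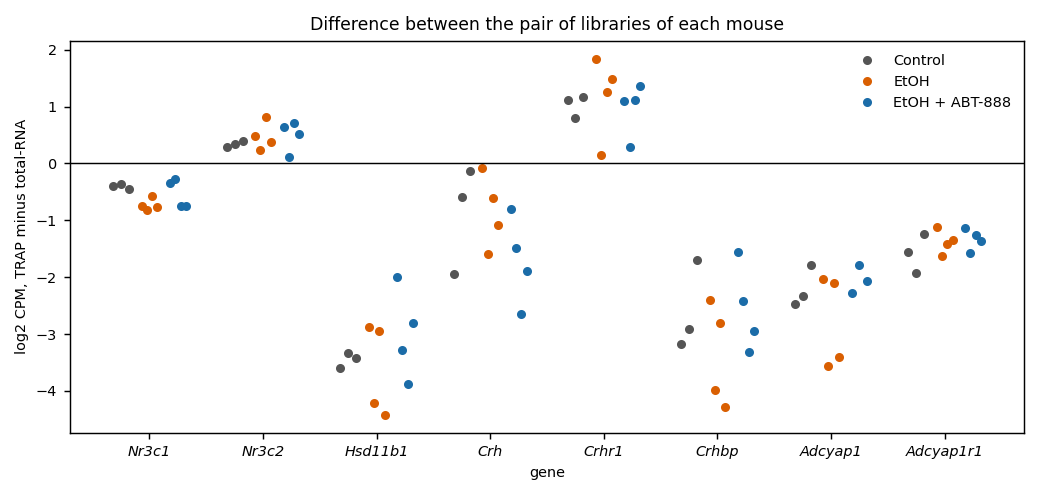
Difference in log2 CPM between the TRAP and the total-RNA library of each mouse (vertical axis) for the 8 genes (horizontal axis), with points as mice coloured by treatment and a line at 0. Adcyap1 of mouse 6 is left out, since its TRAP count was 0. Nr3c2 and Crhr1 lie above 0 in 11 of 11 mice and the remaining genes below 0, with Hsd11b1 as low as -4.42.

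The second question is which transcripts differed in treated mice. In total-RNA, 3 of 8 genes passed the test for EtOH against Control (17.6% of all genes did): Adcyap1r1 was higher, and Crhr1 and Adcyap1 were lower. In TRAP, 0 of 8 passed for the same comparison (5.24% of all genes) by edgeR's quasi-likelihood test, with 3 at an unadjusted p under 0.05 (23.1% of all genes), 2 by edgeR's exact test (9.7%) and 3 by DESeq2 (10.8%). For EtOH + ABT-888 against Control, 0 passed in TRAP (0.476% of all genes), with 3 at an unadjusted p under 0.05 (12.1%) and 0 by the exact test (2.25%) and by DESeq2 (2.98%). In total-RNA 0 passed (0.263%), with 5 at an unadjusted p under 0.05 (15.9%) and 2 by the exact test (3.87%) and by DESeq2 (4.41%). With both ethanol groups pooled against Control, 3 passed in total-RNA (7.10%), the same genes in the same directions, and 0 in TRAP (2.03%), with 4 at an unadjusted p under 0.05 (18%) and 1 by DESeq2 (6.1%). The total-RNA counts turned on single libraries: for EtOH it was 1, 0 and 1 without Control mouse 1, 4 and 7 and 5 without EtOH mouse 8. For both groups pooled it was 0 without any 1 of the Control mice and 1 without EtOH mouse 5 or EtOH + ABT-888 mouse 6 or 11. The calls over all genes turned on single libraries too. With a library left out they ran from 878 (without Control mouse 4) to 3616 (without EtOH mouse 9) for EtOH in total-RNA, against 2482 with all, and from 84 (without Control mouse 4) to 1550 (without EtOH mouse 9) in TRAP, against 737. For EtOH + ABT-888 they ran from 0 to 870 (without mouse 3) in total-RNA, against 37, and from 0 to 373 (without mouse 3) in TRAP, against 67. For both groups pooled they ran from 54 to 1965 in total-RNA, against 999, and from 0 to 667 in TRAP, against 286. These comparisons share their Control libraries. Over the members, the log2 fold changes of EtOH against Control ranged from -1.13 to 0.62 in TRAP and from -1.04 to 0.41 in total-RNA.

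**Figure D3:**
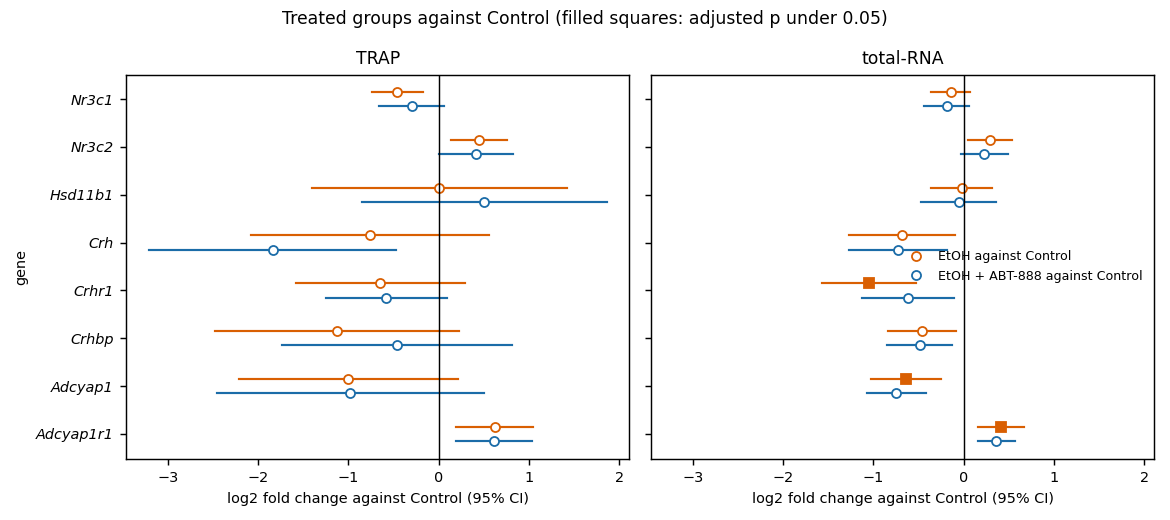
Log2 fold change against Control with its 95% confidence interval (horizontal axis) for the 8 genes (vertical axis), in TRAP (left) and total-RNA (right). Orange marks EtOH and blue EtOH + ABT-888, and filled squares mark an adjusted p under 0.05. Filled squares are those of Crhr1 (-1.04), Adcyap1 (-0.64) and Adcyap1r1 (0.41) in EtOH total-RNA, and the widest intervals are those of the genes with few TRAP reads, such as Hsd11b1 (-1.40 to 1.42 for EtOH).

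Nr3c1, which encodes GR and lies on chromosome 18 (39410545 to 39519421, minus strand), stood at 136, 147 and 139.8 CPM in the TRAP libraries of Control mice 1, 4 and 7. EtOH mice 2, 5, 8 and 9 had 93.2, 101, 102 and 108 CPM, and EtOH + ABT-888 mice 3, 6, 10 and 11 had 115, 133, 114 and 91.1. Every treated mouse was below every Control mouse. The log2 fold change was -0.46 ± 0.13 (SE) for EtOH (adjusted p = 0.0636) and -0.30 ± 0.17 for EtOH + ABT-888 (adjusted p = 0.503), and neither passed. For EtOH, the exact test (adjusted p = 0.0343), DESeq2 (0.0141) and a single fit over all libraries (0.0202) did call it, as did the main test without EtOH mouse 9 (0.0424). In total-RNA the Control mice had 179, 188 and 190.3 CPM, the EtOH mice 157, 179, 152 and 184, and the EtOH + ABT-888 mice 147, 161, 191 and 153. There the groups overlapped, with log2 fold changes of -0.14 ± 0.10 (adjusted p = 0.347) and -0.19 ± 0.11 (0.447). In TRAP against total-RNA, Nr3c1 was lower by -0.42 ± 0.08 in Control (adjusted p = 0.000934), -0.75 ± 0.12 in EtOH (0.00031) and -0.53 ± 0.15 in EtOH + ABT-888 (0.0162), the last with an adjusted p of 0.0506 without the TRAP library of mouse 11.

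Nr3c2, which encodes MR, had values that lay the other way. In TRAP the Control mice had 68.7, 78.9 and 80.3 CPM, the EtOH mice 98.1, 101, 114 and 95.1, and the EtOH + ABT-888 mice 94.5, 76.7, 129.7 and 99.4. All 4 EtOH mice were above Control, and of the EtOH + ABT-888 mice all but mouse 6 were. The log2 fold change was 0.44 ± 0.14 for EtOH (adjusted p = 0.0887) and 0.41 ± 0.19 for EtOH + ABT-888 (0.409), so that neither passed, though DESeq2 called the first (0.0375). In total-RNA the Control mice had 56.2, 62.1 and 61.3 CPM, the EtOH mice 70.1, 85.2, 65.0 and 73.6, and the EtOH + ABT-888 mice 60.8, 70.6, 79.0 and 69.3. The EtOH mice were again above Control, with a log2 fold change of 0.30 ± 0.11 (adjusted p = 0.0846), against 0.23 ± 0.12 (0.376) for EtOH + ABT-888, whose mice overlapped Control. Nr3c2 was higher in TRAP by 0.33 ± 0.10 in Control (adjusted p = 0.0118), 0.46 ± 0.13 in EtOH (0.0102) and 0.52 ± 0.17 in EtOH + ABT-888 (0.0321). The first of these calls was lost in a single fit over all libraries (adjusted p = 0.080) and the third without a filter on low counts (0.0576). Without the total-RNA library of Control mouse 1 the first was lost too (0.0617), and the third passed without the TRAP library of mouse 3 or 6 or the total-RNA library of mouse 10 but was lost without any 1 of the other libraries (0.0649 to 0.0881).

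The level of Nr3c1 relative to Nr3c2, both per length, joins these values. In TRAP the ratio of their RPKM was 1.66, 1.56 and 1.47 in the Control mice. It was 0.801, 0.843, 0.755 and 0.955 in EtOH mice and 1.03, 1.46, 0.739 and 0.772 in EtOH + ABT-888 mice. In total-RNA the Control mice had ratios of 2.68, 2.55 and 2.62, the EtOH mice 1.88, 1.77, 1.97 and 2.11, and the EtOH + ABT-888 mice 2.03, 1.92, 2.04 and 1.86. In both pools the treated mice lay below the Control mice without overlap, by a narrow margin for mouse 6 in TRAP, the shallowest library. The ratio was formed after the levels were seen and is given as a description, with no test.

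**Figure D4:**
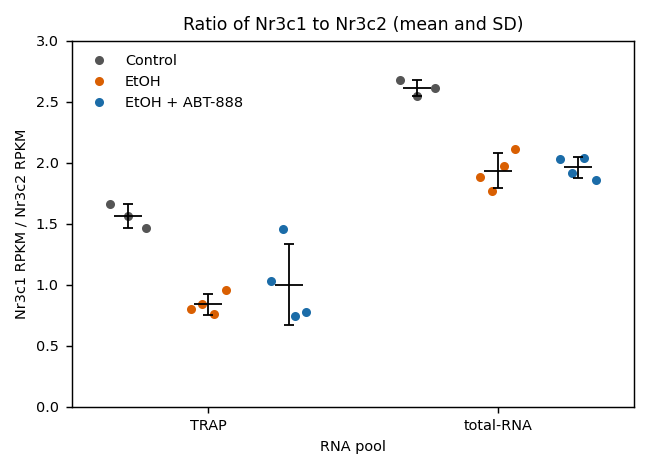
Ratio of Nr3c1 to Nr3c2 RPKM (vertical axis, from 0) in each library, by RNA pool and treatment. Points are mice, horizontal lines the mean and bars the SD. The Control mice lie between 1.47 and 1.66 in TRAP and between 2.55 and 2.68 in total-RNA, and the treated mice of each pool lie below them.

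Hsd11b1, the gene of the steroid-activating enzyme, was nearly absent from TRAP. The Control mice had 0.747, 0.831 and 0.967 CPM in TRAP against 10.3, 8.94 and 10.9 in total-RNA, a log2 difference of -3.55 ± 0.23 (11.7-fold lower, adjusted p = 4.09e-07). It was -3.56 ± 0.38 in EtOH (adjusted p = 2.47e-05) and -2.99 ± 0.36 in EtOH + ABT-888 (8.42e-05), the largest differences of the 8 genes in each treatment. In the same comparisons the 8 astrocyte markers had medians of -3.25 in Control, -3.06 in EtOH and -2.98 in EtOH + ABT-888. The medians of the same comparisons were also low for the 8 microglia markers (-3.36, -2.85 and -2.74), the 8 endothelial and pericyte markers (-3.20, -2.94 and -2.30) and the 8 oligodendrocyte markers (-2.80, -2.88 and -1.96). Those of the neuronal lists were below 0 too, for the 6 excitatory neuron markers (-1.16, -1.85 and -2.12) and the 8 interneuron markers (-0.53, -0.72 and -1.14). In which cells Hsd11b1 was expressed was not tested. In total-RNA the EtOH mice had 10.7, 11.1, 9.00 and 8.68 CPM and the EtOH + ABT-888 mice 7.47, 8.74, 11.6 and 10.8. Both ranges covered that of Control, and the log2 fold changes were -0.02 (95% CI -0.36 to 0.32) and -0.05 (-0.47 to 0.36). In TRAP the EtOH mice had 1.38, 0.557, 1.13 and 0.340 CPM and the EtOH + ABT-888 mice 1.80, 0.751, 0.739 and 1.5, from 5 to 24 reads per library. The log2 fold changes there were 0.0062 (95% CI -1.40 to 1.42) and 0.50 (-0.85 to 1.86).

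Crh, the gene of the peptide hormone, had 4.86, 4.49 and 7.81 CPM in the total-RNA of Control mice, 3.75, 2.49, 5.05 and 2.97 in EtOH mice and 3.11, 2.91, 3.62 and 4.14 in EtOH + ABT-888 mice. EtOH mouse 8 overlapped Control, and no EtOH + ABT-888 mouse did. The log2 fold changes were -0.69 ± 0.27 (adjusted p = 0.0956) and -0.73 ± 0.24 (0.195), and neither passed. Without Control mouse 7 they were -0.39 and -0.44. In TRAP the Control mice ranged widely, with 1.17, 2.94 and 7.11 CPM. The EtOH mice had 3.49, 0.789, 3.29 and 1.36 CPM, and the EtOH + ABT-888 mice 1.72, 0.901, 0.528 and 1.06. The log2 fold changes there were -0.76 ± 0.61 (adjusted p = 0.482) and -1.84 ± 0.63 (0.254). Without Control mouse 7, the first became 0.10 and the second -0.97. Crh was lower in TRAP than in total-RNA by -1.72 ± 0.42 in EtOH + ABT-888 (adjusted p = 0.00672), and the values of -0.56 ± 0.45 in Control (0.300) and -0.70 ± 0.46 in EtOH (0.225) did not pass. Without the TRAP library of Control mouse 7 the Control value was -1.39 and passed (0.00953). In total-RNA the EtOH value passed without EtOH mouse 8 (-0.90, adjusted p = 0.0437) and without a filter on low counts (0.0281).

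Crhr1, which encodes the CRH receptor, had the largest change of the 8 genes for EtOH in total-RNA. The Control mice had 12.5, 14.1 and 10.8 CPM, the EtOH mice 8.18, 4.47, 3.87 and 7.51, and the EtOH + ABT-888 mice 10.6, 7.38, 5.17 and 9.24. All treated mice were below all Control mice. The mean was 12.4 ± 1.64 CPM in Control and 6.01 ± 2.15 in EtOH (SD), a log2 fold change of -1.04 ± 0.24 (95% CI -1.56 to -0.53, adjusted p = 0.012). For EtOH + ABT-888 it was -0.62 ± 0.23 (95% CI -1.12 to -0.11, adjusted p = 0.234), which did not pass. The EtOH call was lost without Control mouse 4 (adjusted p = 0.064) and in one fit to every library (adjusted p = 0.249). In TRAP the Control mice were close together at 27.1, 24.4 and 24.2 CPM. The treated mice spread, with 29.4, 4.92, 9.24 and 21.1 CPM in EtOH and 22.6, 8.86, 11.3 and 23.9 in EtOH + ABT-888. EtOH mouse 2 was above Control, the EtOH + ABT-888 mice were all below it, and the log2 fold changes of -0.65 ± 0.43 (adjusted p = 0.396) and -0.58 ± 0.31 (0.484) did not pass. The first was -1.09 without EtOH mouse 2 and -0.35 without EtOH mouse 5. Crhr1 was higher in TRAP by 1.00 ± 0.14 in Control (adjusted p = 8.91e-05), 1.40 ± 0.48 in EtOH (0.0274) and 1.05 ± 0.35 in EtOH + ABT-888 (0.0314). The Control call was lost in a single fit over all libraries (adjusted p = 0.082). The EtOH call was lost without the TRAP library of mouse 2 or 9 or the total-RNA library of mouse 5 or 8 (0.0632 to 0.0929). The EtOH + ABT-888 call was lost without the TRAP library of mouse 3 or 11 or the total-RNA library of mouse 6, 10 or 11 (0.0563 to 0.109).

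Crhbp, which encodes the CRH-binding protein, was one of the lowest transcripts in TRAP. In total-RNA the Control mice had 14.4, 14.1 and 13.2 CPM, the EtOH mice 9.62, 8.04, 13.4 and 9.27, and the EtOH + ABT-888 mice 10.8, 8.02, 11.5 and 9.09. EtOH mouse 8, which also had the highest Crh of its group, overlapped Control, and the other treated mice were lower. The log2 fold changes of -0.46 ± 0.17 (adjusted p = 0.084) and -0.49 ± 0.16 (0.193) did not pass, and without EtOH mouse 8 the first did (-0.63, adjusted p = 0.0183). In TRAP the Control mice had 1.49, 1.83 and 4.04 CPM, the EtOH mice 1.75, 0.464, 1.87 and 0.408, and the EtOH + ABT-888 mice 3.61, 1.35, 1.11 and 1.12. These overlapped, with log2 fold changes of -1.13 ± 0.62 and -0.46 ± 0.59 (adjusted p = 0.297 and 0.792). Without Control mouse 7 they were -0.56 and 0.11. Crhbp was lower in TRAP than in total-RNA by -2.46 ± 0.29 in Control (adjusted p = 2.33e-05), -3.19 ± 0.46 in EtOH (0.000175) and -2.46 ± 0.41 in EtOH + ABT-888 (0.000639), the last being -3.07 without the TRAP library of mouse 3.

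Adcyap1, the PACAP gene, was lower in the total-RNA of all treated mice. The Control mice had 14.3, 13.1 and 12.9 CPM, the EtOH mice 10.4, 6.02, 9.25 and 8.64, and the EtOH + ABT-888 mice 9.09, 7.91, 7.10 and 7.81, with no overlap. The log2 fold change was -0.64 ± 0.18 for EtOH (95% CI -1.03 to -0.25, adjusted p = 0.0287) and -0.74 ± 0.15 for EtOH + ABT-888 (95% CI -1.07 to -0.42, adjusted p = 0.063). The second did not pass here, while the exact test (adjusted p = 0.00269), DESeq2 (0.000263) and a fit without a filter on low counts (0.0313) called it, as did the main test without EtOH + ABT-888 mouse 3 (0.0185) or 10 (0.0365). The EtOH call was lost without each of the 3 Control libraries in turn (0.0761 to 0.116), and in one fit to every library (adjusted p = 0.487). In TRAP the Control mice had 2.45, 2.55 and 3.70 CPM and the EtOH mice 2.47, 0.464, 2.11 and 0.748. The EtOH + ABT-888 mice had 1.80, 0, 2.00 and 1.81 CPM. The count of 0 in mouse 6 allows a level of up to 0.449 CPM (3 counts of 6570957 reads, counting error only). The log2 fold changes of -1.0 ± 0.56 and -0.98 ± 0.68 did not pass (adjusted p = 0.303 and 0.599). Adcyap1 was lower in TRAP than in total-RNA by -2.20 ± 0.20 in Control (adjusted p = 3.56e-06), -2.59 ± 0.46 in EtOH (0.00069) and -2.41 ± 0.54 in EtOH + ABT-888 (0.00408).

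Adcyap1r1, which encodes PAC1, was higher with EtOH in total-RNA, while the gene of its ligand was lower. The Control mice had 119, 128 and 116 CPM, the EtOH mice 184, 176, 134 and 149, and the EtOH + ABT-888 mice 159, 150.1, 158 and 154. All treated mice were above Control. The log2 fold change was 0.41 ± 0.12 for EtOH (95% CI 0.16 to 0.66, adjusted p = 0.0318). For EtOH + ABT-888 it was 0.36 ± 0.09 (95% CI 0.16 to 0.57, adjusted p = 0.116), called by the exact test (0.0491) and DESeq2 (0.00656). The EtOH call held without EtOH mouse 8 or 9 but was lost without any other library (0.0629 to 0.121), and in one fit to every library (adjusted p = 0.236). In TRAP the Control mice had 40.4, 33.7 and 49.0 CPM, the EtOH mice 84.3, 57.1, 50.4 and 58.8, and the EtOH + ABT-888 mice 72.6, 50.3, 66.1 and 60.1. Every treated mouse was again above Control, by 0.62 ± 0.20 (adjusted p = 0.0855) and 0.61 ± 0.19 (0.212) on the log2 scale. The first was called by the exact test (adjusted p = 0.0431), DESeq2 (0.0357), the fit without a filter (0.031) and the single fit (0.0285). Adcyap1r1 was lower in TRAP than in total-RNA by -1.58 ± 0.13 in Control (adjusted p = 1.99e-06), -1.38 ± 0.17 in EtOH (6.58e-05) and -1.32 ± 0.14 in EtOH + ABT-888 (4.21e-05).

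The design also asks whether ABT-888 moved the level away from that of ethanol alone. By edgeR's quasi-likelihood test 0 of 8 genes differed between EtOH + ABT-888 and EtOH in TRAP (0% of all genes) and 0 in total-RNA (0%). None of the 8 had an unadjusted p under 0.05 in either pool, where 0.966% and 1.91% of all genes did. The exact test and DESeq2 called 0 members too (0% of all genes in TRAP and 0.0142% in total-RNA by each). The values ranged from -1.08 (Crh) to 0.67 (Crhbp) in TRAP and from -0.10 (Adcyap1) to 0.43 (Crhr1) in total-RNA. For Crhr1 in total-RNA the 95% CI ran from -0.19 to 1.05, for Adcyap1 from -0.52 to 0.32 and for Adcyap1r1 from -0.31 to 0.21. For Nr3c1 in TRAP the difference was 0.16 (95% CI -0.20 to 0.52), and for Crh it was -1.08 (-2.41 to 0.24). A call against Control in EtOH and its absence in EtOH + ABT-888 are therefore not shown to differ for any of the genes.

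Whether ethanol acted differently in the pools was tested by an interaction over all 22 libraries. It passed for 0 of 8 genes with EtOH (0.0213% of all genes) and for 0 with EtOH + ABT-888 (0%). None had an unadjusted p under 0.05, where 4.87% and 3.38% of all genes did. This fit did not use the pairing of libraries by mouse. With the mouse as a block 0 members passed too, where 14 and 0 of 14072 genes did. Within mice, Nr3c1 in TRAP minus total-RNA was -0.44 to -0.36 in Control and -0.82 to -0.57 in EtOH (log2 CPM), without overlap. In EtOH + ABT-888 it was -0.75 to -0.28, which overlapped Control. DESeq2 called 0 members (0.114% and 0.0284% of all genes), as did the likelihood ratio test (0.114% and 0.0426%). The smallest unadjusted p with EtOH was that of Nr3c1 (0.0668), whose fold change was lower in TRAP than in total-RNA by -0.33 ± 0.17 on the log2 scale (95% CI -0.69 to 0.03, adjusted p = 1.00). With EtOH + ABT-888 the largest difference was that of Crh, -1.14 ± 0.73 (95% CI -2.64 to 0.37, adjusted p = 1.00), which became -0.29 without the TRAP library of Control mouse 7.

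Among the genes of the receptor complex and of steroid handling, which fold the receptors or carry their signal to chromatin, 6 of 20 tested passed for EtOH against Control in total-RNA, where 17.6% of all genes did, with a median over the list of -0.03 against 0.00 over all genes. Lower were the co-chaperones Fkbp4 (-0.49, adjusted p = 0.00603) and Stip1 (-0.46, 0.0105), the chaperone Hspa8 (-0.50, 0.0105), the chaperone-linked ubiquitin ligase Stub1 (-0.42) and the chromatin remodeller Smarca4 (-0.67, 0.00632). The corepressor Nrip1 was higher (0.40). Fkbp4 stood at 77.8 to 85.3 CPM in Control and 55.1 to 60.4 in EtOH, with no overlap. By the same test 0 of 20 passed for EtOH in TRAP, where 5.24% of all genes did. For EtOH + ABT-888, 0 passed in TRAP (0.476% of all genes) and 0 in total-RNA (0.263%). Against such low shares these counts say nothing particular of the list. Hsd11b2, which inactivates corticosterone, was not tested, with at most 0.225 CPM in any library. The list of 16 glucocorticoid-induced genes had 16 called for EtOH in total-RNA, all higher (median 1.32), and 7 in TRAP, where 17.6% and 5.24% of all genes were called, with Fkbp5 at 1.74 and 1.03 and Sgk1 at 1.88 and 0.95. The list was chosen with earlier results of these data known, so these counts are a description and not an independent test. For EtOH + ABT-888, 4 of the 16 passed in total-RNA and 2 in TRAP, where 0.263% and 0.476% of all genes did, with list medians of 1.32 and 0.83. Without Control mouse 1, 0 of all genes passed for EtOH + ABT-888 in either pool, so that both counts fell to 0.

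Of 19 other stress peptides, receptors and processing enzymes, 10 were too low to test, among them the CRH family members Ucn, Ucn2 and Ucn3, the second CRH receptor Crhr2 (at most 1.67 CPM in any library), Pomc, Avp and Oxt. Of the 9 tested, 2 passed for EtOH in total-RNA (list median -0.10), a share near the 17.6% of all genes, so that the count says nothing particular of the list. Mc4r, the melanocortin receptor, was higher by 1.71 (adjusted p = 0.00162), at 5.37 to 10.3 CPM against 1.62 to 2.58 in Control. Pcsk1, a protease that processes peptide precursors, was lower by -0.60 (adjusted p = 0.0383), at 21.7 to 39.9 CPM against 43.0 to 44.1. In TRAP, 0 passed for EtOH by edgeR's quasi-likelihood test, where 5.24% of all genes did. Between pools, 5 of the 9 differed in Control (1 higher in TRAP and 4 lower), 7 in EtOH (2 and 5) and 8 in EtOH + ABT-888 (2 and 6), where 59.9%, 50.7% and 41.0% of all genes did. The PACAP and VIP receptor Vipr1 was higher in TRAP than in total-RNA in Control (0.68, adjusted p = 0.00505), EtOH (0.79) and EtOH + ABT-888 (0.69), the reverse of Adcyap1r1.

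In the signal transduction list of 19 genes, all tested, 4 passed for EtOH in total-RNA and 3 in TRAP (list medians -0.12 and -0.04, against 0.00 and 0.02 over all genes). Of all genes, 17.6% and 5.24% passed, and the share in total-RNA was near that background. In total-RNA the adenylyl cyclase genes Adcy3 (-0.57, adjusted p = 0.00444) and Adcy2 (-0.50, 0.00603) were lower, and Adcy9 (0.39) and the receptor kinase gene Grk3 (0.46) were higher. In TRAP, Adcy9 (0.75, adjusted p = 0.0144) and the G protein gene Gna11 (0.58) were higher, and Crem was lower. Crem encodes activators and repressors that bind the CRE. Its TRAP level was 27.8 to 30.1 CPM in Control, 9.56 to 15.9 in EtOH and 10.4 to 15 in EtOH + ABT-888. The log2 fold changes of -1.15 (adjusted p = 0.0122) and -1.15 (0.0354) both passed, and Crem was the 1 gene of the 19 that did so for EtOH + ABT-888 in TRAP, where 0.476% of all genes passed. Without the TRAP library of Control mouse 1, 0 of all genes passed for EtOH + ABT-888, so that the second call was lost. Between pools, Adcy5 was higher in TRAP by 2.67 in Control, 2.45 in EtOH and 2.73 in EtOH + ABT-888. Adcy2 (-1.98) and Adcy8 (-1.80) were lower in Control_TRAP.

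Across the 22 libraries, with the mean of each pool removed, members were compared by Pearson's r of log2 CPM. These values describe libraries that share treatments, mice and depth. The highest were 0.67 for Hsd11b1 and Crhbp, 0.65 for Crh and Crhbp and 0.63 for Nr3c2 and Adcyap1r1, and the lowest -0.64 for Nr3c1 and Adcyap1r1 and -0.49 for Nr3c2 and Crhr1. Nr3c1 and Nr3c2 had an r of -0.44. Among all protein-coding genes tested, the 2 closest to each member were picked for the highest r, so high values follow from the selection. They were Lpgat1 (0.81) and Parg (0.81) for Nr3c1, and Nol6 (0.90) and Gtf2ird1 (0.90) for Nr3c2. They were Cobll1 (0.84) and Tbx18 (0.83), a mural cell transcription factor, for Hsd11b1. For Crh they were Pafah1b3 (0.80) and Parp8 (0.80), for Crhr1 the peptide gene Apln (0.91) and the oxysterol receptor gene Nr1h2 (0.90), and for Crhbp the interneuron peptide gene Npy (0.89) and Dnah7b (0.88). Adcyap1 was closest to the monoamine transporter gene Slc29a4 (0.91) and Rgs3 (0.89), and Adcyap1r1 to Pdzd2 (0.87) and Pitpnm2 (0.86).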

How the data were processed

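The authors depleted ribosomal RNA, mapped paired-end reads with STAR (mm10) and deposited raw counts per gene made by featureCounts with an ENSEMBL annotation, without normalization. Versions, strand setting and the handling of multimapping reads are not given in the sources used here. Names, positions and exon lengths came from GENCODE M21, which matched 38872 of the 39056 genes. A filter taken from the study's methods, a sum of 500 counts or more and detection in 3 libraries or more, kept 14072 genes here. Counts were analysed in R 4.3.3 with TMM factors and edgeR 4.0.16 (quasi-likelihood test, two-sided), fitted to the groups compared, or to all 22 libraries for the interaction, with Benjamini-Hochberg adjustment over all genes tested and a threshold of 0.05. Levels are TMM-normalized CPM, log2 CPM used a prior count of 1, and RPKM divide by exon length. Alternatives were edgeR's exactTest, DESeq2 1.42.0, RLE factors, no filter, filterByExpr, a single fit, the mouse as a block, the likelihood ratio test and leaving out each library. Scripts were tested on simulated data. Libraries of a mouse share the animal id, and their deviations from the group means correlated in all 11 mice (r of 0.102 to 0.622, mean 0.298). Nothing in the labels names a batch.

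The members and lists were chosen with earlier results of these data known. Named were the 8 members, the 2 protein-coding genes closest to each in Pearson's r, and of each pathway list up to 4 genes with the smallest p in a comparison. Nrip1, Stub1, Vipr1, the genes too low to test and Adcy8 were named beyond that rule after their values were seen. Lists of marker genes are given by counts, medians and summed CPM. From the neuronal marker lists Slc17a7, Camk2a, Slc32a1, Gad1, Gad2, Pvalb, Npy and Lhx6 were also named singly, beyond the rule above.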

Additional observations from a re-analysis of the deposited data

Results flagged for a closer look

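In 32 sets of 4 libraries (8 genes in 4 treated groups), the gap between the extreme library and its neighbour was set against the range of the set (Dixon's 95% criterion), which chance alone passes in about 1 of 20 sets. It was passed in 2. Crhbp in EtOH + ABT-888_TRAP stood at 3.61 CPM in mouse 3 (44 reads) against 1.11 to 1.35 in the other mice, a gap of 0.903 of the range. Adcyap1 in EtOH + ABT-888_TRAP was 0 CPM in mouse 6, the shallowest library, against 1.80 to 2.00 in the other mice, a gap of 0.900 of the range.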

How the results depend on the processing

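Between the paired pools every call and direction of the 8 genes held with the replicate block, the mouse as a block, with 7, 7 and 8 members called in Control, EtOH and EtOH + ABT-888, and 0 members in either interaction. Over all genes the block raised the calls from 5769 to 7642 between pools in EtOH + ABT-888 and from 3 to 14 for the EtOH interaction. It was not run within a pool, where each mouse has 1 library. Against Control, the members called rested on the test and on single libraries. For EtOH in TRAP the count of 0 became 2 with exactTest, 3 with DESeq2, 1 without a filter and 2 in a fit over all libraries, while the calls over all genes went from 737 to 1365, 1523, 1472 and 1191, and it was 0 to 1 when a library was left out (1 without EtOH mouse 9). For EtOH in total-RNA the count of 3 became 0 in the fit over all libraries (2482 to 151 over all genes) and 0 to 5 with a library left out, being 1, 0 and 1 without Control mouse 1, 4 and 7 and 5 without EtOH mouse 8. For EtOH + ABT-888 in total-RNA 0 became 2 with exactTest, 2 with DESeq2, 1 without a filter (37 to 544, 621 and 544 over all genes) and 0 to 1 with a library left out (1 without mouse 3 or 10). For both groups pooled, 0 in TRAP became 1 with DESeq2 and 2 in the fit over all libraries (286 to 859 and 1237 over all genes). In total-RNA 3 became 0 in the fit over all libraries (999 to 152 over all genes) and 0 to 4 with a library left out, being 0 without each Control mouse in turn and 1 without EtOH mouse 5 or EtOH + ABT-888 mouse 6 or 11. With EtOH + ABT-888, TRAP against total-RNA gave 5 to 8 members. The cause of these changes was not tested.

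Directions turned for values near 0 or with few reads. Hsd11b1 with EtOH in TRAP was -0.0060 with filterByExpr, -0.019 in the fit over all libraries and -0.29 to 0.25 with a library left out. In total-RNA it ranged from -0.10 to 0.047 with EtOH, from -0.16 to 0.053 with EtOH + ABT-888 and from -0.11 to 0.032 for both pooled. In TRAP, Crh with EtOH ranged from -1.16 to 0.10 and Crhbp with EtOH + ABT-888 from -1.04 to 0.11, both turning without Control mouse 7. For EtOH + ABT-888 against EtOH in total-RNA, Adcyap1 ranged from -0.24 to 0.0045 and Adcyap1r1 from -0.13 to 0.026. RLE factors changed no call of a member. With 3 or 4 mice a group, and 0 to 125 reads for Hsd11b1, Crh, Crhbp and Adcyap1 in TRAP, changes of these genes there were measured with wide intervals.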
